A study of Mus musculus with 12 samples.

Results

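Mest, Sfrp5, Bmp3 and Npr3 are genes whose RNA in white fat is known to follow the growth of the fat pad and to differ between genetically identical mice. They were chosen by symbol and make up 4 of the 54134 genes in the table of reads per gene from inguinal white adipose tissue (iWAT), and all 4 were among the 15585 genes that passed the filter on low counts. The study asked how NOTUM made by the liver acts on fat: NOTUM is a secreted carboxylesterase that inactivates WNT proteins. Male C57BL/6J mice were given, at 8 weeks of age and through the tail vein, an adeno-associated virus of serotype 8 that made GFP (AAV-GFP, 6 mice) or mouse Notum (AAV-Notum, 6 mice), in both cases from the thyroxine binding globulin promoter, which is active in hepatocytes. All 12 mice were then kept on chow diet for 4 weeks and fasted for 4 h before iWAT was taken, and each mouse gave 1 RNA-seq library, named here by group and mouse number. Because the virus acts in the liver, Notum reads in iWAT do not test the treatment: Notum was 0.0595 to 0.995 CPM (counts scaled to library size) in AAV-GFP mice and 0.457 to 29.3 CPM in AAV-Notum mice, where mice Notum-2032 (29.3 CPM) and Notum-2041 (26.6 CPM) were above all others. Hepatocyte markers too were highest in these mice among AAV-Notum mice, with means of 3.64 and 5.83 log2 CPM against 0.03 to 1.45. The source of their Notum reads was not tested.

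White fat expands by filling adipocytes with triglyceride and by forming new ones, and a small set of genes is switched on in adipocytes while this happens. Mest (mesoderm specific transcript) is imprinted and read from the paternal copy, and it encodes a protein of the endoplasmic reticulum with a hydrolase fold. Sfrp5 encodes a secreted frizzled-related protein that binds WNTs outside the cell, Bmp3 a member of the TGF-β superfamily that opposes other bone morphogenetic proteins, and Npr3 the natriuretic peptide receptor that takes up and clears these peptides without making cyclic GMP.

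In GRCm38, with the GENCODE vM21 annotation, Mest (ENSMUSG00000051855) lies on the plus strand at chr6:30723547-30748465 and Bmp3 (ENSMUSG00000029335) on the plus strand at chr5:98854415-98884396. Sfrp5 (ENSMUSG00000018822) lies on the minus strand at chr19:42197971-42202252 and Npr3 (ENSMUSG00000022206) on the minus strand at chr15:11839896-11907287. The last 912 bases of Mest (chr6:30747554-30748465) overlap Copg2, which is read from the opposite strand, and the first 769 bases of Npr3 (chr15:11906519-11907287) overlap the non-coding gene Gm5144, also on the opposite strand. Whether the counting used strand is not given in the sources used here, so reads in these overlaps cannot be assigned with certainty. The miRNA gene Mir335 lies inside Mest on the same strand (chr6:30741299-30741396), and 1 read was counted on it over the 12 mice.

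As the 4 genes moved together between mice, the 250 bases before their start sites are shown, from RefSeq (GRCm38.p6), 5′ to 3′ on the strand of the gene, with CG pairs in capitals because Mest is an imprinted gene and CG pairs are where DNA is methylated. RefSeq gave 3 promoters for Mest, of which 2 lie 3 bases apart and the first of these is shown (chr6:30737800-30738049, plus strand), 1 for Sfrp5 (chr19:42202253-42202502, minus strand) and 1 for Npr3 (chr15:11907372-11907621, minus strand). Bmp3 had no entry.
Mest: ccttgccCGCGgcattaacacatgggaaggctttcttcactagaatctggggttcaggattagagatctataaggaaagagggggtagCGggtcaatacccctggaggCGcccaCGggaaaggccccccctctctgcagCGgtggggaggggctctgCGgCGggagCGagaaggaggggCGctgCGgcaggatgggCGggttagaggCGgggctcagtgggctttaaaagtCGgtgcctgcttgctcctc
Sfrp5: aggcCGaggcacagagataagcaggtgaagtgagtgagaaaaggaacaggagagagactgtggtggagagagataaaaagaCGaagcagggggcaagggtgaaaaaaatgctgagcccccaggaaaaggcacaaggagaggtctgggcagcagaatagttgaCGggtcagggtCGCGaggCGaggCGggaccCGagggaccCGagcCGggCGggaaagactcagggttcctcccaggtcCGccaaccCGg
Npr3: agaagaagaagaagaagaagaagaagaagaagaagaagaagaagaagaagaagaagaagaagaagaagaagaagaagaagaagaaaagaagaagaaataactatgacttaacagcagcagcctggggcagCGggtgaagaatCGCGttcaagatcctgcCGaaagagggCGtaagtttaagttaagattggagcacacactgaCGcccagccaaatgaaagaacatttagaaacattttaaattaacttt

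These stretches held 14 CG pairs for Mest, 13 for Sfrp5 and 6 for Npr3, where the median over the 32851 promoters of the table was 6. Fewer CG pairs were held by 70.6%, 68.5% and 49.6% of these promoters, respectively. On both strands, 5 motifs were searched over these 250 bases. The DR1 repeat, bound by PPARγ with RXR, was found in 0.0335% of all promoters. TTGCNNAA, bound by C/EBP factors, was found in 9.56%, and the TCF/LEF motif CTTTGAT in 3.21%. The E-box CACGTG was found in 6.02%. For the TATA box, TATAAA, the share was 12.4%. The printed stretches held 0 of the 5, which says only that these letters are not in these windows. The upstream Mest promoter (chr6:30733256-30733505), not printed, held 7 CG pairs and 1 TTGCNNAA match, 155 bases before its start site.

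Between 14711113 and 21618860 reads were counted on genes per mouse, and the RNA integrity number (RIN) lay at 5.7 to 7.6 with AAV-GFP and at 6.9 to 7.4 with AAV-Notum. The 12 adipocyte markers (such as Adipoq, Plin1 and Lipe) were detected in every mouse, with a mean of 10.3 to 11.4 log2 CPM, so the samples hold the fat cells that their label names. The mean of 15 lymphoid markers (such as Ms4a1 and Cd3e) was -0.07 in mouse GFP-2011 and -0.64 in GFP-2014 against 3.83 to 7.23 in the other 10 mice, so these 2 libraries stand apart. GFP-2012, at 3.83, was also below every AAV-Notum mouse (5.14 to 7.23). RNA of GFP-2012 was isolated 22 days after collection and that of the other 11 mice 2 days after. In whole tissue, fewer cells of a type and less RNA per cell cannot be told apart.

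Mest was high and variable in AAV-GFP mice and low in every AAV-Notum mouse. It was 83.7, 29.0, 16.9, 77.7, 58.0 and 9.24 CPM in mice GFP-2011, GFP-2012, GFP-2013, GFP-2014, GFP-2021 and GFP-2022. In mice Notum-2031, Notum-2032, Notum-2033, Notum-2034, Notum-2041 and Notum-2042 it was 4.27, 5.60, 5.70, 5.37, 4.37 and 6.73 CPM. Mice GFP-2011, GFP-2014 and GFP-2021 were the highest, GFP-2012 and GFP-2013 lay in between, and GFP-2022 was the lowest of its group yet above all 6 AAV-Notum mice. These levels rest on 150 to 1493 reads per AAV-GFP mouse and 71 to 107 reads per AAV-Notum mouse.

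Sfrp5, the WNT-binding adipokine, had the same order among AAV-GFP mice. Its level in mice GFP-2011, GFP-2012, GFP-2013, GFP-2014, GFP-2021 and GFP-2022 was 50.8, 17.4, 9.95, 47.7, 35.9 and 3.63 CPM. In mice Notum-2031, Notum-2032, Notum-2033, Notum-2034, Notum-2041 and Notum-2042 it was 2.85, 3.72, 3.58, 4.53, 3.69 and 6.86 CPM, from 54 to 106 reads. Here the groups overlapped through GFP-2022 alone, which lay among the AAV-Notum mice, while the other 5 AAV-GFP mice were above all of them.

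Npr3, the clearance receptor, was 802, 261, 129.9, 748, 596 and 80.7 CPM in mice GFP-2011, GFP-2012, GFP-2013, GFP-2014, GFP-2021 and GFP-2022. In the AAV-Notum mice, in the order given for Sfrp5, it was 109, 154, 163, 97.9, 131 and 124 CPM. GFP-2022 was below every AAV-Notum mouse, GFP-2013 lay among them, and the other 4 AAV-GFP mice were above them.

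Bmp3, the antagonist of bone morphogenetic proteins, was 64.4, 27.0, 18.5, 58.4, 56.0 and 13.9 CPM in mice GFP-2011, GFP-2012, GFP-2013, GFP-2014, GFP-2021 and GFP-2022. In the AAV-Notum mice, in the same order as above, it was 13.2, 21.6, 18.8, 12.1, 22.5 and 22.9 CPM. Both GFP-2013 and GFP-2022 lay within the AAV-Notum range, and the other 4 AAV-GFP mice were above it.

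**Figure D1:**
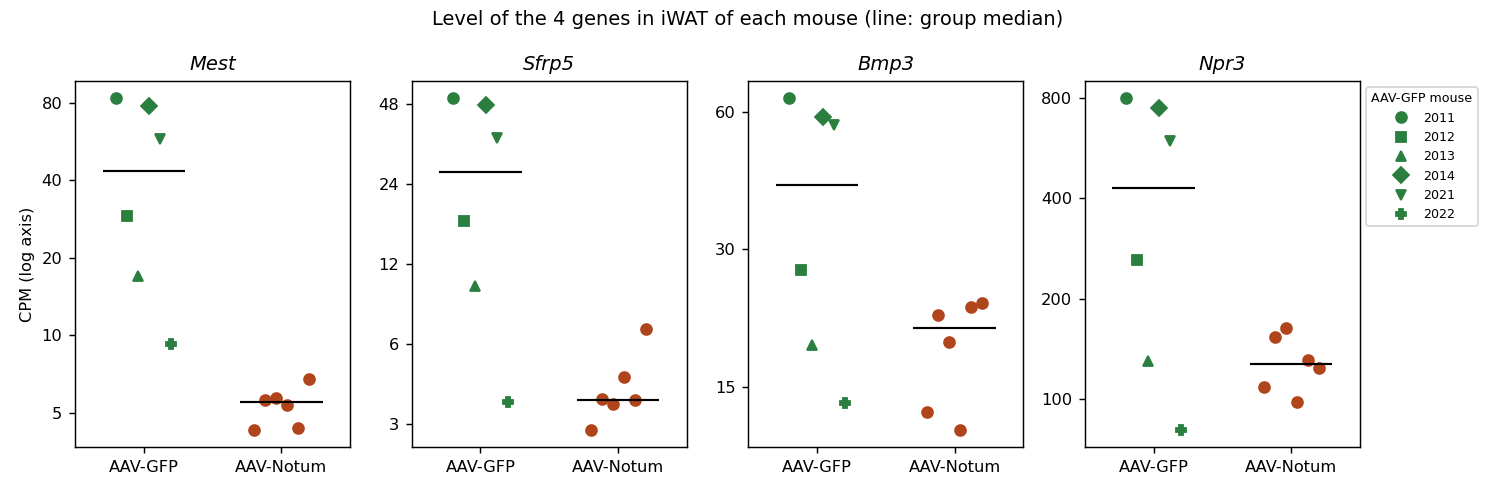
Level of each gene (CPM, log axis) in the 6 AAV-GFP (green) and 6 AAV-Notum mice (orange), with 1 point per mouse and a line at the group median. Each AAV-GFP mouse has its own symbol, and the symbols fall in one order in all 4 panels; the groups are apart for Mest and overlap for the others.

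The spread between AAV-GFP mice was wide for all 4 genes. The highest AAV-GFP mouse exceeded the lowest 9.06-fold for Mest, 14.0-fold for Sfrp5, 9.95-fold for Npr3 and 4.65-fold for Bmp3. The corresponding ratios among AAV-Notum mice were 1.58, 2.41, 1.67 and 1.90. On the log2 scale the SD of Mest was 1.28 in AAV-GFP mice (n = 6) and 0.24 in AAV-Notum mice (n = 6), where counting error alone gives about 0.0707 and 0.153. For Sfrp5 the SD was 1.48 and 0.42, for Npr3 1.40 and 0.28, and for Bmp3 0.95 and 0.40 in AAV-GFP and AAV-Notum mice, respectively. Without GFP-2022, the lowest mouse, the SD of Sfrp5 among AAV-GFP mice was 1.01. Without GFP-2011 and GFP-2014, the libraries low in lymphoid RNA, the SD among the other 4 AAV-GFP mice was 1.13 for Mest, 1.39 for Sfrp5, 1.27 for Npr3 and 0.88 for Bmp3.

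The SD of Mest in AAV-GFP mice was larger than that of 98.0% of the 2715 genes with a mean level within 0.5 log2 CPM of its own. The share was 96.1% for Sfrp5 (2373 genes), 96.1% for Bmp3 (2724 genes) and 99.2% for Npr3 (375 genes). In AAV-Notum mice the SD of Mest was larger than that of 30.9% of genes of like level, and the shares were 62.2% for Sfrp5, 68.4% for Npr3 and 85.0% for Bmp3. The median SD over all genes tested was 0.30 in AAV-GFP and 0.27 in AAV-Notum mice, which sets the background for these values. The difference in spread between the groups was not tested.

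**Figure D2:**
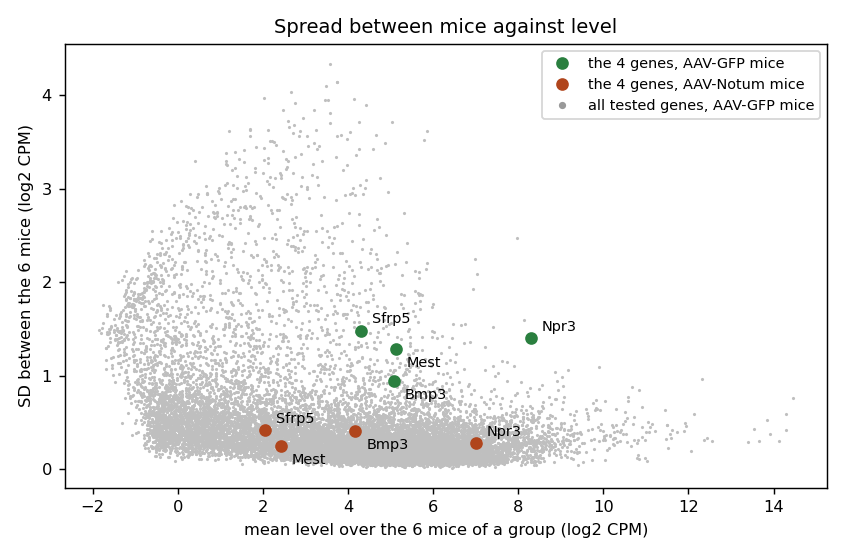
SD between the 6 mice of a group against the mean level of a gene (both log2 CPM), with every tested gene in AAV-GFP mice in grey. The 4 genes lie at an SD of 0.95 to 1.48 in AAV-GFP mice (green) and of 0.24 to 0.42 in AAV-Notum mice (orange).

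All 4 genes ranked the 6 AAV-GFP mice alike: GFP-2011 was the highest, followed by GFP-2014, GFP-2021, GFP-2012, GFP-2013 and GFP-2022. Spearman's rho was therefore 1 for each of the 6 pairs of genes (exact permutation test over 720 pairings, two-sided, p = 0.00278, the smallest possible). Pearson's r of log2 CPM among AAV-GFP mice was 0.998 for Mest and Npr3, 0.996 for Bmp3 and Npr3, 0.994 for Mest and Sfrp5, 0.991 for Mest and Bmp3, 0.987 for Sfrp5 and Npr3 and 0.978 for Sfrp5 and Bmp3. Each had an exact permutation p of 0.00139, the smallest possible, also 0.00139 when adjusted over the 6 pairs. As all pairs rest on the same order of the same 6 mice, these tests are not independent of each other. The genes and tests were chosen with earlier results of these data known. After the 2 mice farthest from the median were left out, these r were between 0.976 and 0.9998. As background, 9.87% of the 12894 genes with a mean of at least 1 log2 CPM had an r with Mest above 0.9 in these 6 mice.

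To use all 12 mice without the contrast between groups, the group mean was subtracted from each gene first. Mest and Sfrp5 then had an r of 0.98 (within-group permutation test, p = 8.0e-05, adjusted over 6 pairs p = 4.8e-04) and a rho of 0.92 (permutation p = 0.00191, adjusted p = 0.00642). For Mest and Npr3 the r was 0.97 (permutation p = 9.8e-04, adjusted p = 0.00187) and the rho 0.88 (permutation p = 0.00844, adjusted p = 0.0101). Mest and Bmp3 had an r of 0.92 (permutation p = 0.00125, adjusted p = 0.00187) and a rho of 0.90 (permutation p = 0.00366, adjusted p = 0.00732). The r of these 3 pairs was 0.96, 0.93 and 0.85 without GFP-2022 and GFP-2011, the mice farthest from the median of Mest.

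Between the other genes, Bmp3 and Npr3 had an r of 0.95 (permutation p = 3.7e-04, adjusted p = 0.00111) and a rho of 0.92 (permutation p = 0.00214, adjusted p = 0.00642). Sfrp5 and Bmp3 had an r of 0.90 (permutation p = 0.00170, adjusted p = 0.00204) and a rho of 0.88 (permutation p = 0.00522, adjusted p = 0.00783). For Sfrp5 and Npr3 the r was 0.92 (permutation p = 0.00362, adjusted p = 0.00362) and the rho 0.77 (permutation p = 0.0476, adjusted p = 0.0476). Without the 2 mice farthest from the median, the r of these pairs was 0.90, 0.82 and 0.82, and that of Sfrp5 and Npr3 no longer passed 0.05 (adjusted permutation p = 0.0529). Without centring, over all 12 mice, r was 0.97 for Bmp3 and Npr3, 0.93 for Sfrp5 and Npr3 and 0.92 for Sfrp5 and Bmp3, and the rho was 0.88, 0.70 and 0.78. These values hold the difference between the groups, with which the genes were chosen, and are a description with no test. Without GFP-2011 and GFP-2014, the r after centring was 0.97, 0.94 and 0.86 for Mest with Sfrp5, Npr3 and Bmp3 (adjusted permutation p = 0.00963, 0.0328 and 0.0328), 0.92 for Bmp3 and Npr3 (0.00963), 0.83 for Sfrp5 and Bmp3 (0.0385) and 0.86 for Sfrp5 and Npr3 (0.0566).

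No value without centring is given for pairs with Mest, whose groups do not overlap. Among the 6 AAV-Notum mice alone, where the genes varied little, 0 of the 6 pairs passed 0.05. The r ran from -0.12 for Sfrp5 and Npr3 (exact permutation p = 0.864) to 0.81 for Mest and Sfrp5 (exact permutation p = 0.0583, adjusted p = 0.350), and the rho from -0.26 for Sfrp5 and Npr3 (exact permutation p = 0.658) to 0.60 for Mest and Sfrp5 (exact permutation p = 0.242). The correlations over 12 mice thus draw mainly on the AAV-GFP mice, and the difference between the r of the groups was not tested.

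**Figure D3:**
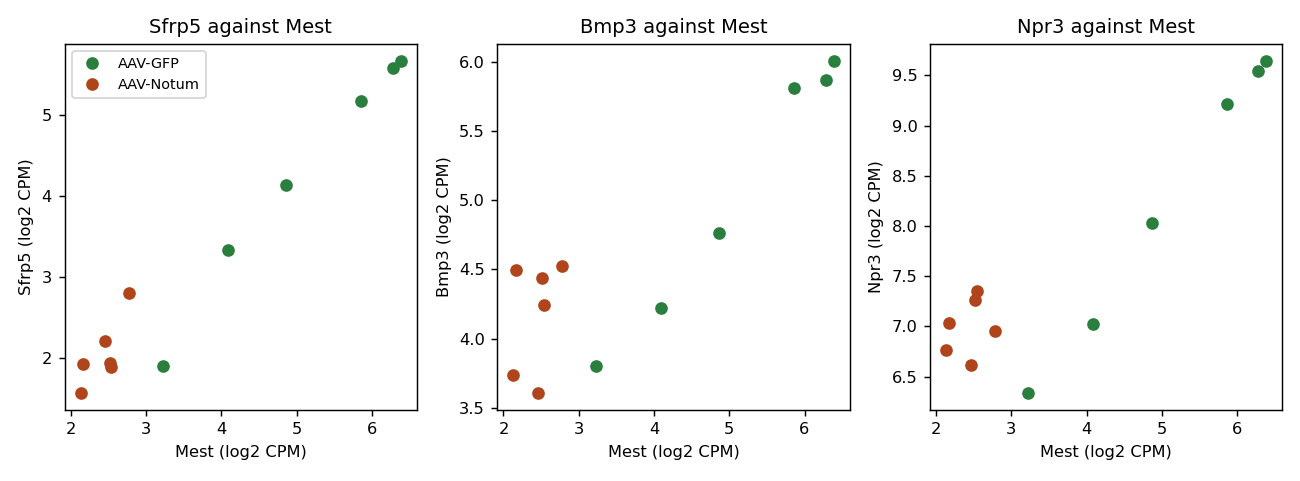
Sfrp5, Bmp3 and Npr3 against Mest (log2 CPM), 1 point per mouse, AAV-GFP green and AAV-Notum orange. The AAV-GFP mice lie along a line (r of 0.994, 0.991 and 0.998 with Mest), and the AAV-Notum mice, all lower in Mest, form a cloud. All 6 of them have more Npr3 than GFP-2022, the AAV-GFP mouse lowest in Mest.

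In the comparison of AAV-Notum with AAV-GFP mice, all 4 genes had lower fitted levels in AAV-Notum iWAT. As the genes were chosen with results of this comparison known, the values are a description and no p is given. The log2 fold change from edgeR was -3.10 for Mest (standard error, SE, 0.49), from 45.7 ± 31.8 CPM with AAV-GFP to 5.34 ± 0.92 CPM with AAV-Notum (SD, n = 6 each), 8.56-fold higher in AAV-GFP. Sfrp5 had a log2 fold change of -2.72 (SE 0.55), from 27.6 ± 20.0 to 4.20 ± 1.41 CPM (SD, n = 6 each). That of Npr3 was -1.75 (SE 0.50), from 436 ± 319 to 129.9 ± 25.2 CPM (SD, n = 6 each). Bmp3 had the smallest of the 4, -1.10 (SE 0.37), from 39.7 ± 22.4 to 18.5 ± 4.78 CPM (SD, n = 6 each). Among the 4 genes, Mest alone had its 6 AAV-Notum values below its 6 AAV-GFP values. That was so for 0.693% of all genes tested, and nothing is read from it, since the choice of genes used this contrast. The 6 AAV-Notum values of each of the 4 genes were also under the mean of AAV-GFP mice. The share of all genes with that pattern was not counted, and nothing is read from it.

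The 3 AAV-GFP mice with high levels include the libraries low in lymphoid RNA, so the values were also taken without them. Leaving out GFP-2011 and GFP-2014 together gave log2 fold changes of -2.42 for Mest (SE 0.41), -2.01 for Sfrp5 (0.50), -1.05 for Npr3 (0.45) and -0.65 for Bmp3 (0.36). With the lymphoid score in the fit as a covariate they were -2.27 (SE 0.38), -1.83 (0.45), -0.91 (0.44) and -0.55 (0.34), in the same order. In GFP-2021, the third of the high mice, the lymphoid markers were at 6.22 log2 CPM, within the range of AAV-Notum mice (5.14 to 7.23), and Mest was 58.0 CPM. Across the 6 AAV-GFP mice, the r of the 4 genes with the lymphoid score ran from -0.78 to -0.72, given as a description.

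Among AAV-GFP mice, adipocyte markers moved with the 4 genes as well, over a narrower range. Their mean ranged over 10.4 to 11.4 log2 CPM with AAV-GFP and 10.3 to 11.4 with AAV-Notum, and its r with the 4 genes among AAV-GFP mice was 0.79 to 0.84. Among AAV-Notum mice that r was 0.71 for Sfrp5, 0.48 for Mest, 0.47 for Bmp3 and 0.08 for Npr3. Scaled to the adipocyte markers of the same mouse, the log2 fold change was -2.53 for Mest, -2.09 for Sfrp5, -1.15 for Npr3 and -0.75 for Bmp3. That scaling moved the median over all genes from 0.00773 to 0.16 on the log2 scale. Among AAV-GFP mice the r with RIN was -0.61 to -0.54 and that with the total read count 0.82 to 0.86. With RIN as a covariate the log2 fold changes were -2.69, -2.27, -1.37 and -0.86 for Mest, Sfrp5, Npr3 and Bmp3. The mean of 7 progenitor markers (such as Pdgfra and Dpp4) was 6.24 log2 CPM in GFP-2011 and 5.70 in GFP-2014, against 6.49 to 6.99 in the other 10 mice, and its r with the 4 genes among AAV-GFP mice was -0.68 to -0.63. The part of lymphoid tissue, adipocyte and progenitor content, RIN and read total in the spread of the 4 genes was not tested.

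**Figure D4:**
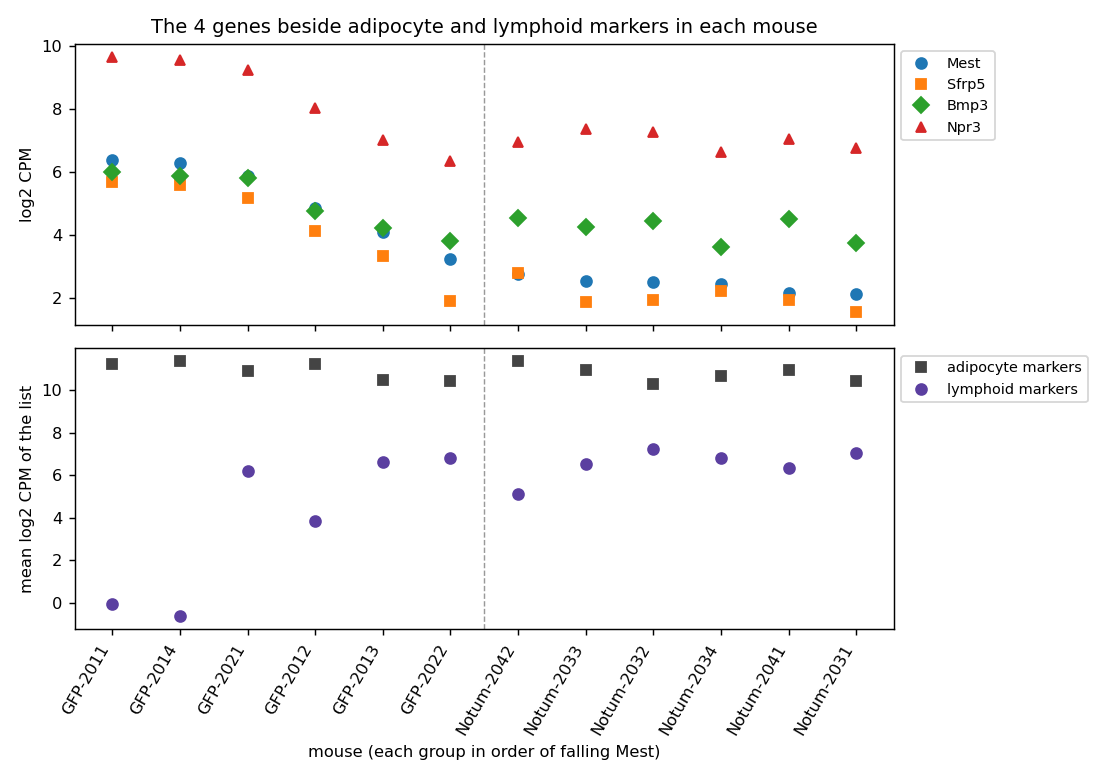
The 4 genes (log2 CPM, upper panel) and the mean of the adipocyte and lymphoid marker lists (log2 CPM, lower panel) in each mouse, AAV-GFP left and AAV-Notum right of the dashed line, each group in order of falling Mest. Lymphoid markers are low in GFP-2011 and GFP-2014 and are at 6.22 in GFP-2021, which has high levels of all 4 genes.

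Related genes were taken from 5 lists that follow the role of each gene: other genes tied to adiposity, the natriuretic peptide pathway, frizzled-related and non-canonical WNT genes, partners of Bmp3 in BMP and activin signaling, and the neighbours of Mest on chromosome 6. Of 50 genes listed, 49 were found in the table and 38 were tested. With edgeR's adjusted p under 0.05, 0 of the 38 differed between the groups, where 0.0513% of all genes were called lower and 0% higher. At an unadjusted p under 0.05, 13 were lower and 0 higher in AAV-Notum mice, against 9.54% and 4.64% of all genes tested. As the lists were chosen with earlier results of these data known, the counts are a description. A lower fitted level in AAV-Notum mice, with or without a small p, was found for 30 of the 38 (25 relative to adipocyte markers) and for 7604 of the 15585 genes tested. DESeq2 called 1 of the 38 lower at an adjusted p under 0.05, Nkd1, where it called 2.58% of all genes lower, so this count is near the background.

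The genes tied to adiposity include leptin and the caveolar genes that shape the adipocyte surface. All 10 had a lower fitted level in AAV-Notum mice, where 7604 of the 15585 genes tested did. An unadjusted p under 0.05 was found for 6 of them, where 9.54% of all genes tested were lower at this threshold. The median log2 fold change was -0.64 against 0.00773 over all genes. This list was chosen with earlier results of these data known, so these values are a description. Under 3 scalings of the libraries (TMM, RLE and total reads) the count lower was 10, 10 and 9, and it was 9 relative to adipocyte markers. Nkd1, an inhibitor and target of WNT signaling, had a log2 fold change of -1.04 (edgeR adjusted p = 0.140, SE 0.26), from 7.28 ± 2.90 to 3.53 ± 0.72 CPM (SD, n = 6 each). That of Trp53inp2, a regulator of autophagy, was -0.82 (edgeR adjusted p = 0.216, SE 0.26) and that of Cavin3, a component of caveolae, -0.92 (edgeR adjusted p = 0.283, SE 0.35). The 6 AAV-Notum values of these 3 genes were under the mean of AAV-GFP mice. The same held for other related genes, among them Lep, Npr1, Sfrp1, Bmp2 and Klf14, while Vldlr had 4 such values. The share over all genes was not counted, so nothing is read from this. With the lymphoid score as a covariate Trp53inp2 was at -0.38 and Cavin3 at -0.28, and without GFP-2011 and GFP-2014 they were at -0.49 and -0.41. With these mice left out together, the count at an unadjusted p under 0.05 over the 5 lists dropped from 13 to 2, and it was 2 with the lymphoid score as a covariate.

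Leptin, the adipocyte hormone that reports fat stores, had the second highest r with Mest over the 12 mice after subtraction of group means, among 12894 genes with a mean of at least 1 log2 CPM, and was at rank 70 among the AAV-GFP mice alone. Lep was 59.5 CPM at the lowest, 452 at the median and 737 at the highest among AAV-GFP mice, and 119, 203 and 261 CPM among AAV-Notum mice. It split the AAV-GFP mice as the 4 genes did, with GFP-2011, GFP-2014 and GFP-2021 at 736, 733 and 737 CPM and the others at 59.5 to 172. Its log2 fold change was -1.14 (edgeR adjusted p = 0.372, SE 0.56), a difference within the spread between mice. It was -0.42 with the lymphoid score as a covariate, -0.42 relative to adipocyte markers and -0.50 without GFP-2011 and GFP-2014.

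In the natriuretic peptide pathway, the guanylyl cyclase receptors that share ligands with Npr3 were lower at an unadjusted p only. Npr1, the receptor of atrial and B-type peptides, had 85.0 ± 18.2 CPM in AAV-GFP and 61.8 ± 10.2 CPM in AAV-Notum mice (SD, n = 6 each, log2 fold change -0.46, edgeR adjusted p = 0.212). Npr2, the receptor of C-type peptide, had 88.2 ± 23.3 and 65.6 ± 14.7 CPM (SD, n = 6 each, log2 fold change -0.43, edgeR adjusted p = 0.346). Npr1 was at -0.30 relative to adipocyte markers, and Npr2 at -0.11 with the lymphoid score as a covariate. The r with Mest after subtraction of group means was 0.25 for Npr1 and 0.70 for Npr2, against 0.97 for Npr3. The ligand genes Nppa, Nppb and Nppc and the processing enzyme gene Corin had 1, 0, 1 and 2 reads over the 12 mice and were not tested.

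Of the 11 frizzled-related and non-canonical WNT genes, 6 had lower and 5 higher fitted levels. At an unadjusted p under 0.05, 1 was lower, against 9.54% of all genes tested. This was Sfrp1, the relative of Sfrp5, at 4.51 ± 1.22 and 3.20 ± 0.87 CPM (SD, n = 6 each, log2 fold change -0.49, edgeR adjusted p = 0.345, and -0.17 with the lymphoid score as a covariate). Sfrp5 has WNT5A as its best known ligand in fat, and Wnt5a had a log2 fold change of -0.25 (edgeR adjusted p = 0.591, SE 0.25), which turned to 0.21 with the lymphoid score as a covariate. The r of Wnt5a with Mest was 0.88 after subtraction of group means.

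Among the 9 partners of Bmp3 tested, 8 had lower fitted levels, where 7604 of the 15585 genes tested did. At an unadjusted p under 0.05, 3 were lower, against 9.54% of all genes tested. These were Bmp2 (log2 fold change -0.43, edgeR adjusted p = 0.214, SE 0.14), Bmp4 (-0.49, edgeR adjusted p = 0.325, SE 0.21), both ligands that promote bone and fat formation, and Acvr2b, the activin receptor that BMP3 binds (-0.54, edgeR adjusted p = 0.268, SE 0.20). With the lymphoid score as a covariate Bmp2, Bmp4 and Acvr2b were at -0.25, -0.24 and -0.25. Gdf10, the closest relative of Bmp3, had 17.3 ± 5.19 and 17.0 ± 3.58 CPM (SD, n = 6 each) and an r with Mest of 0.02.

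At the Mest locus, 3 of the 10 neighbours listed could be tested. Klf14, a transcription factor gene of the same imprinted region (chr6:30956023-30959078), had 2.64 ± 1.69 CPM in AAV-GFP and 1.08 ± 0.56 CPM in AAV-Notum mice (SD, n = 6 each, log2 fold change -1.30, edgeR adjusted p = 0.295, SE 0.51), from 9 to 79 reads per mouse. It was -0.46 with the lymphoid score as a covariate and -0.71 without GFP-2011 and GFP-2014. Copg2, the neighbour whose end overlaps that of Mest, had a log2 fold change of -0.14 (edgeR adjusted p = 0.528, SE 0.11). Its level was 59.9 ± 9.07 and 54.6 ± 6.35 CPM (SD, n = 6 each). Copg2 turned to 0.04 with the lymphoid score as a covariate and to 0.03 relative to adipocyte markers.

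**Figure D5:**
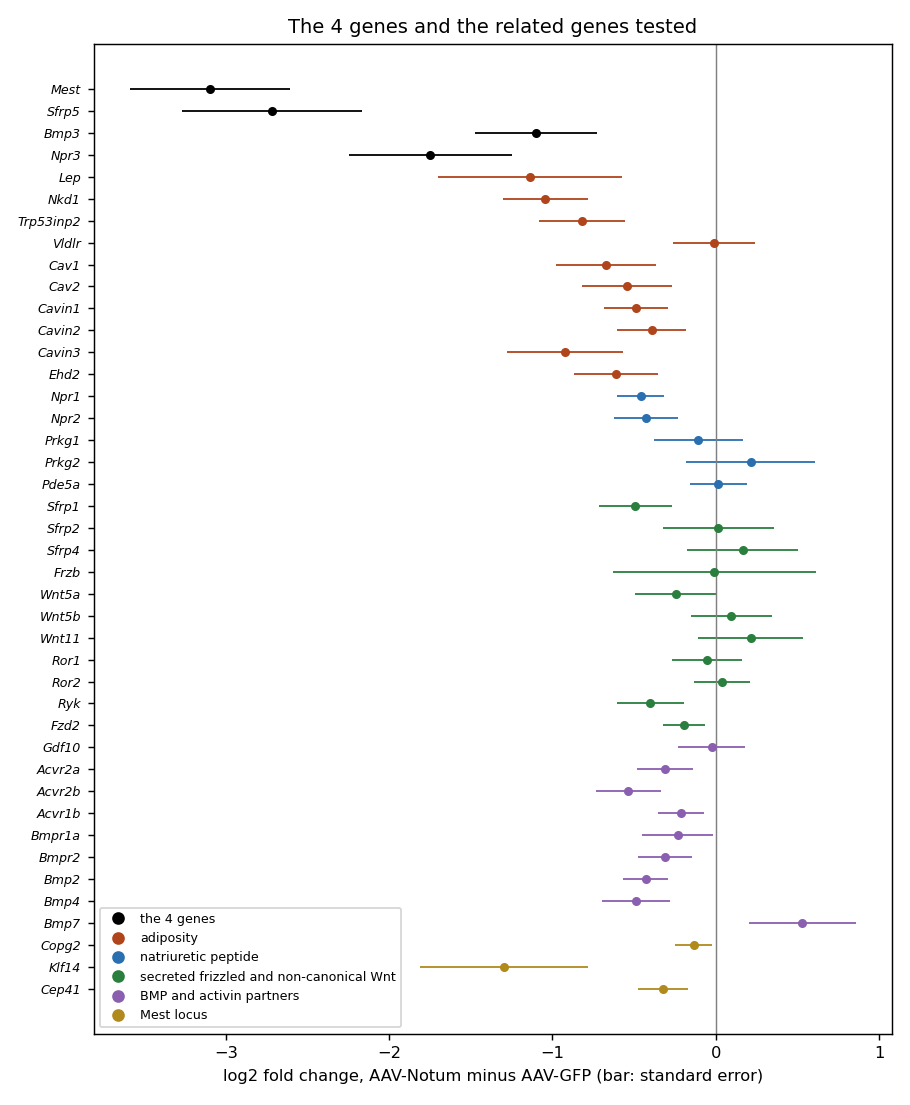
Log2 fold change of AAV-Notum against AAV-GFP mice, with its standard error as a bar, for the 4 genes (black) and the 38 related genes tested, coloured by list. The 4 genes lie between -3.10 and -1.10, and the related genes between -1.30 and 0.53.

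The genes most like Mest were found over the 12 mice after subtraction of group means, among 12894 genes with a mean of at least 1 log2 CPM. They were Sfrp5 (r = 0.98), Lep (0.97), Npr3 (0.97), Adamts5 (0.97), which encodes a protease of cartilage proteoglycans, and Lbp (0.97), which encodes the lipopolysaccharide binding protein. Bmp3 was at rank 81. Over all of these genes the median r with Mest was 0.08, and 1.18% had an r above 0.9. Lbp ranged from 21.6 to 97.9 CPM with AAV-GFP and from 13.9 to 18.9 CPM with AAV-Notum. This lack of overlap was shared by 0.693% of all genes tested. Its log2 fold change was -1.81 (edgeR adjusted p = 0.101, SE 0.35). Lbp passed 0.05 with DESeq2 (adjusted p = 1.03e-04), which called 2.58% of all genes lower. It also passed in edgeR without GFP-2022 (adjusted p = 0.0191), where 146 genes were called lower. In the other 10 alternatives and the other 11 fits without 1 mouse it did not pass. Adamts5 was 62.9 to 391 CPM and 72.9 to 131 CPM, with overlap (log2 fold change -1.15, edgeR adjusted p = 0.219, SE 0.38). With the lymphoid score as a covariate Lbp was at -1.17 and Adamts5 at -0.41, and without GFP-2011 and GFP-2014 they were at -1.26 and -0.55. Next to Mest, the genes most like Sfrp5 were Slc4a3 and Hmgn3 (r = 0.98 for both). Those most like Bmp3 were Vgll3 (r = 0.99), D130017N08Rik and Il17re (0.97 for both), and those most like Npr3 were Lbp (0.98), Prelp and Mest (0.97 for both).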

How the data were processed

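RNA of iWAT was sequenced from 12 mice, 6 per group, and groups and mouse numbers were taken from the labels. The authors mapped reads to mm10 (STAR 2.3.1, per the submitters' processing notes) and deposited a table of read counts per gene and a table of log2 values. Undoing the size factor and the log2 of the second table, as deposited by the authors, gave whole reads for 100% of values (tolerance 0.01). The counting program is not given in the sources used here. The first table was analysed in R 4.3.3 with edgeR 4.0.16 (filterByExpr, minimum count 10 and total 15, TMM, quasi-likelihood F test, two-sided, Benjamini-Hochberg over 15585 genes, threshold 0.05). CPM use TMM library sizes, and log2 CPM a prior count of 2. Standard errors are the log2 fold change over the root of F.

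Correlations were tested by 100000 permutations within groups, or exactly over the 720 pairings of 6 mice. The 4 genes, the lists and the tests were chosen with earlier results of these data known. Genes could be named, and not all of them were, if they passed the adjusted threshold, were among the 3 of smallest p in a list, were a receptor, ligand or closest relative of one of the 4 genes, or were the 5 highest or 3 lowest in r with Mest (3 highest for the other genes). The scripts were tested on simulated counts. Alternatives were DESeq2 1.42.0, limma-voom (limma 3.58.1), RLE or total-count scaling, other filters, covariates, the second table, and mice left out. Library pairs differed by at least 22.3 chi-square per gene over 66 pairs, so none was a duplicate. Figures were drawn with matplotlib. Read counts per mouse set the counting error, which was below the SD between mice for the 4 genes in both groups.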

Additional observations from a re-analysis of the deposited data

How the results depend on the processing

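The 4 genes had negative log2 fold changes in each of the 11 alternatives and the 12 fits without 1 mouse: Mest -3.10 to -2.27 and -3.31 to -2.84, Sfrp5 -2.71 to -1.83 and -2.95 to -2.45, Bmp3 -1.11 to -0.55 and -1.28 to -0.91, Npr3 -1.75 to -0.91 and -1.97 to -1.48, the smallest with the lymphoid covariate. Genes called lower and higher over the whole table, 8 and 0 in edgeR (1487 and 723 at an unadjusted p under 0.05), were 402 and 94 with DESeq2, 13 and 1 with RLE size factors, 43 and 2 with total library sizes, 14 and 1 with at least 10 counts in every mouse, 5 lower with at least 1 count, 4 lower with the lymphoid covariate, 1 higher with the recovered reads and 1 lower without GFP-2011 and GFP-2014. Without 1 mouse they were 1 (Notum-2033) to 146 lower and 0 to 12 higher (146 and 12 without GFP-2022). Of the related genes, DESeq2 called 1 lower (Nkd1, adjusted p = 0.0122). The 13 at an unadjusted p under 0.05 became 4 with RIN as a covariate, 2 with the lymphoid covariate, 2 without the pair of mice named above, and 5 (without GFP-2011) to 20 (without Notum-2042) without 1 mouse. The within-group r of Sfrp5 and Npr3 was 0.82 without the 2 farthest mice (adjusted permutation p = 0.0529) and 0.86 without GFP-2011 and GFP-2014 (adjusted permutation p = 0.0566), and the other 5 pairs passed 0.05 in every alternative. The SD of Sfrp5 among AAV-GFP mice, 1.48, was 1.01 to 1.66 without 1 mouse, with 1.01 for GFP-2022. Signs turned for Wnt5a (0.21 with the lymphoid covariate, 0.0872 without GFP-2011 and GFP-2014), Copg2 (0.0379 with the lymphoid covariate, 0.0254 relative to adipocyte markers) and Gdf10 (0.00899 with total library sizes, 0.16 relative to adipocyte markers, -0.14 to 0.10 without 1 mouse). The cause of these changes was not tested, other than fewer mice where mice were left out. No paired analysis was possible because the groups share no replicate numbers. Klf14, with 9 to 79 reads per mouse, could not be fitted under the filter of 10 counts in every mouse.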

Other observations

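The genes that ran most against Mest after subtraction of group means were D430020J02Rik, Cdc25a and Sema3a, each with an r of -0.97. Cdc25a, a phosphatase that drives cells into division, was 9.58 to 16.1 CPM in AAV-GFP mice and 14.0 to 16.1 CPM in AAV-Notum mice (log2 fold change 0.34, edgeR adjusted p = 0.272, SE 0.13). Sema3a, a secreted guidance protein, was 2.03 to 7.57 CPM and 4.27 to 5.84 CPM. Over the 12894 genes compared, 0.202% had an r with Mest below -0.9. These values describe 12 mice and carry no test.

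The second deposited table rests on a different count of Mest reads. Its recovered reads for Mest were 59.2% to 86.0% of those in the first table, for example 903 against 1493 in GFP-2011 and 79 against 104 in Notum-2042. For Sfrp5, Bmp3 and Npr3 the second table held 100% to 107% of the reads of the first, and for Copg2, which overlaps the end of Mest, 95.1% to 100.3%. With the recovered reads the log2 fold change of Mest was -2.88. The cause of the difference between the tables was not tested.

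Hepatocyte markers, checked because the virus acts in the liver, had a mean of 0.16 to 8.46 log2 CPM in AAV-GFP and 0.03 to 5.83 log2 CPM in AAV-Notum mice, and the r of the 4 genes with them in AAV-GFP mice was -0.48 to -0.39.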
